A study of Mus musculus with 12 samples.

Results

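Peaks of ZFP57 and its corepressor KAP1 were examined in 8 windows of the mouse genome that are named for their clusters of KRAB zinc finger genes. The windows lie on 7 chromosomes and add up to 34.5 Mb, which is 1.34% of the span covered by the peak lists. A peak was taken when its midpoint fell inside a window, and 413 of 13716 peaks did. KAP1 gave most of them, 311 in A3 and 58 in E14, and ZFP57 gave 25 in A3 and 19 in E14. Within the windows the rule used position alone, and no width or overlap of a peak chose it. The windows themselves were chosen with earlier results of these data known.

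The peaks were measured by ChIP-seq, in which an antibody pulls down cross-linked DNA fragments bound by a protein and the fragments are sequenced. Both lines are wild-type mouse embryonic stem cells, A3 of strain 129X1/SvJ and E14 of strain 129P2/OlaHsd, grown without feeder cells on gelatin in serum and LIF. The E14 medium held more foetal calf serum, and only the A3 medium held added non-essential amino acids. Each protein had 1 library per line, so line, strain, medium and library cannot be told apart, and no value has a replicate error. The inputs, the H3K9me3 libraries and all libraries of A3 cells lacking Zfp57 were not analysed here. Intervals given below are 95% exact intervals that cover counting error only and treat peaks as independent, which neighbouring peaks are not. No p-value is given, because no group has a replicate to test against.

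KRAB zinc finger proteins bind DNA through arrays of zinc fingers and use their KRAB domain to recruit KAP1 (TRIM28). KAP1 in turn brings in the methyltransferase SETDB1, which places H3K9me3, and the genes of the family are themselves known targets of KAP1 and H3K9me3. These genes arose by repeated duplication and stand in tandem arrays. ZFP57 is a member of the family that is best known for protecting methylated imprinting control regions, where it binds the methylated hexamer TGCCGC.

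The label of the windows could not be checked against gene positions, since the genome and gene models of the build of the peaks, mm9, were not used here. What the RefSeq gene table of assembly GRCm38.p6 gives is the order of genes by name. A run was counted where at least 4 genes with zinc finger symbols followed each other with at most 3 other genes between neighbours. Chromosome 7 held 10 such runs with 72 zinc finger genes, among them an unbroken run of 15 genes from Zfp84 to Zfp146 and a run of 5 that holds Zim1 beside the imprinted gene Peg3. An unbroken run of 25 genes from Zfp712 to Zfp273, which includes the regulator of sex-limited protein genes Rsl1, stood on chromosome 13. Chromosome 17 held 3 runs with 33 genes, the longest from Zfp677 to Zfp40, and chromosome 4 a single run of 17 genes from Zfp990 to Zfp933 that includes Rex2. On chromosomes 9 and 2 the runs held 13 and 8 genes. Chromosome 10 held no run, with 6 zinc finger symbols in all, so its window could not be tied to a run. Symbols do not show a KRAB domain, and family members with provisional names are missed.

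The sequences under the peaks were not used here, but promoter windows of these genes were searched for TGCCGC or its reverse complement GCGGCA. Of the 173 zinc finger genes in the runs, 154 had at least 1 promoter window of 300 bases in RefSeq (GRCm38.p6), and 19 of their 166 windows held the hexamer (11.4%). Over all 32851 promoter windows the share was 11.6%, so the promoters of the runs held it about as often as any. The runs were counted over whole chromosomes and lie in part outside the peak windows, so these shares do not describe the genes of the windows alone. The 4 stretches below come from the run around Peg3 and from the run Zfp84 to Zfp146. They are shown because chromosome 7 holds both the site called in all lists and the densest A3 KAP1 window. Capitals mark the hexamer, each is written 5′ to 3′ on the gene's own strand, and none was placed on a peak.
Zim1 (minus strand): gaaagtcatcccGCGGCAttccactccggg
Zfp27 (minus strand): atggcggcctacGCGGCAtctctgggcacg
Zfp566 (minus strand): agccatcttgtcTGCCGCgttccctcggac
Zfp382 (plus strand): ggagaggcgcgcGCGGCAactaacgggccg

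The windows, in mm9, run from 175 to 178 Mb on chromosome 2, 145 to 148 Mb on chromosome 4, 20 to 22.5 Mb on chromosome 9, 80.5 to 82.5 Mb on chromosome 10, 61 to 68 Mb on chromosome 13 and 20 to 24 Mb on chromosome 17. Chromosome 7 has a proximal window from 4 to 14 Mb and a second one from 29 to 32 Mb. Few peaks stood close to an edge. Within 100 kb of the 16 edges, 10 A3 KAP1 peaks lay inside and 10 outside, 3 and 2 for E14 KAP1, 1 and 2 for A3 ZFP57, and 2 and 0 for E14 ZFP57.

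KAP1 peaks stood more densely in the windows than along the rest of the same chromosomes in both lines. In A3 there were 9.01 KAP1 peaks per Mb in the windows and 4.19 per Mb in the rest, a ratio of 2.15 (1.91 to 2.42). In E14 the values were 1.68 and 0.550 per Mb, a ratio of 3.06 (2.29 to 4.02). For ZFP57 the E14 list had 0.551 peaks per Mb in the windows against 0.238, a ratio of 2.31 (1.36 to 3.70). The A3 ZFP57 list had 0.725 against 0.545 per Mb, and its ratio of 1.33 had an interval that included 1 (0.852 to 1.99). The windows held 4.35% of the E14 KAP1 list, 3.16% of E14 ZFP57, 3.02% of A3 KAP1 and 1.68% of A3 ZFP57. The density differed by window and by line, and the pooled ratios hide that. Leaving out a window also took the rest of its chromosome from the background, except on chromosome 7, where another window remained. Without the chromosome 4 window the E14 KAP1 ratio was 2.25, and without the second chromosome 7 window the A3 KAP1 ratio was 1.86. The E14 ZFP57 interval reached below 1 without the chromosome 4 window (1.79, 0.959 to 3.08), without the chromosome 13 window (1.84, 0.933 to 3.29) and with each window narrowed by 500 kb at both ends (1.69, 0.834 to 3.09). The A3 ZFP57 interval lay above 1 among its peaks of at least 450 bp (2.07, 1.11 to 3.56). It also did so without the chromosome 2 window and the rest of that chromosome (1.74, 1.11 to 2.62). That window held no A3 ZFP57 peak, while the rest of chromosome 2 had 0.922 per Mb, the highest of these chromosomes. Without the second chromosome 7 window, also empty, the background stayed whole and the ratio was 1.46 (0.933 to 2.17).

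**Figure D1:**
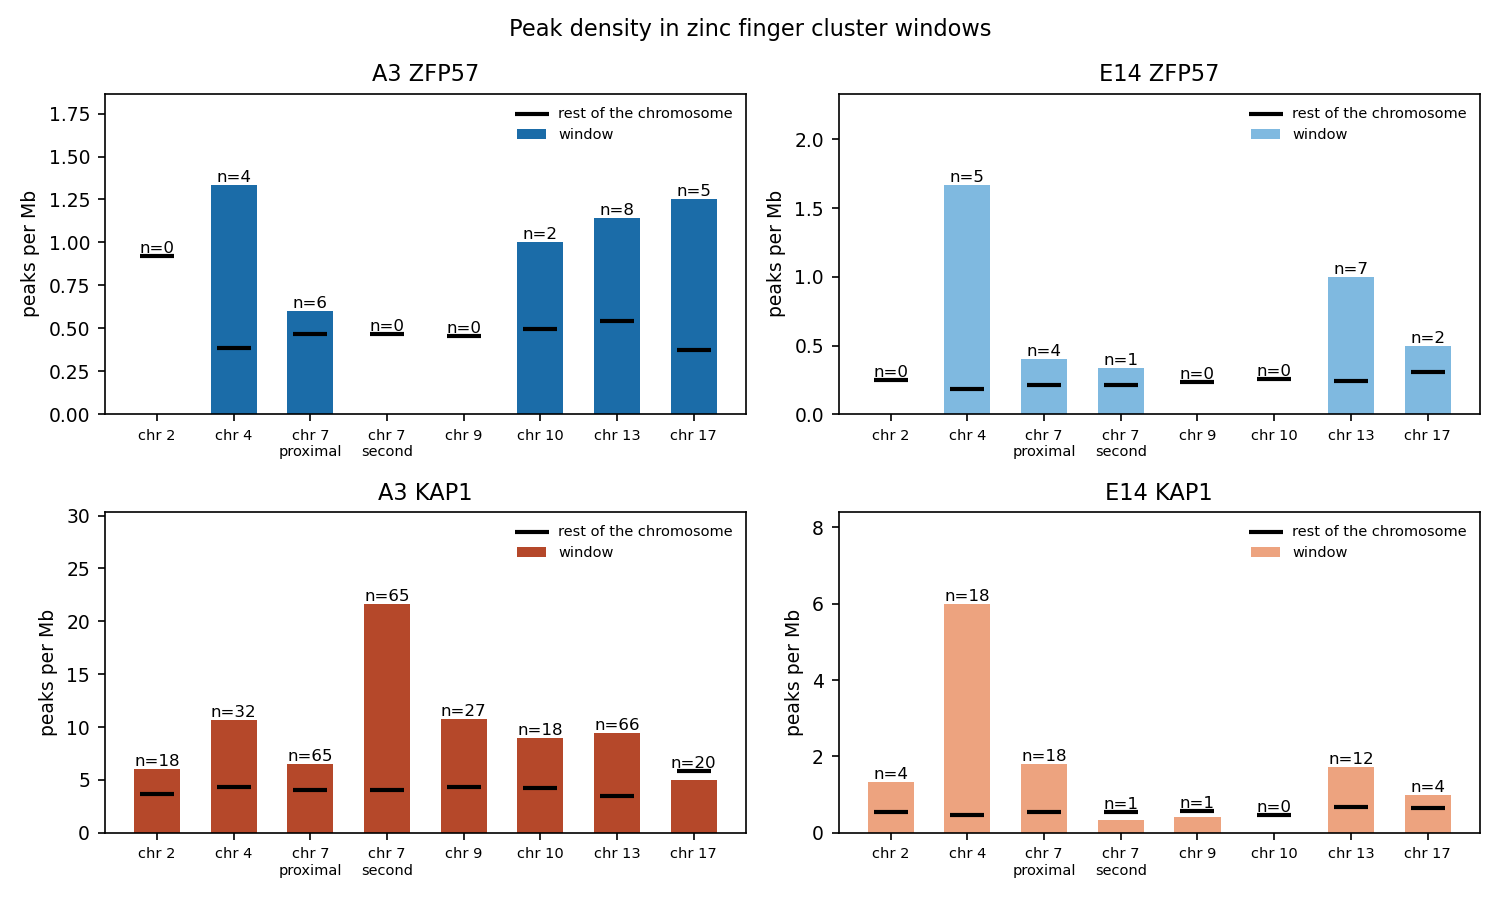
Peaks per Mb in each window (bars, with the number of peaks above) and in the rest of the same chromosome (black lines), for the 4 lists on separate vertical scales. A3 KAP1 reached 21.7 per Mb in the second chromosome 7 window, and E14 KAP1 reached 6 per Mb in the chromosome 4 window.

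The chromosome 4 window was the densest of the 8 in E14 for both proteins. It held 18 E14 KAP1 peaks, 6 per Mb against 0.475 per Mb in the rest of chromosome 4, a ratio of 12.6 (7.09 to 21.4). In 49 successive stretches of the same 3 Mb on the rest of chromosome 4 the count ran from 0 to 9, with a median of 1. The same window held 5 E14 ZFP57 peaks, a ratio of 8.90 (2.68 to 23.3), where the other stretches held at most 3. In A3 it held 32 KAP1 peaks, 10.7 per Mb, with a ratio of 2.47 (1.67 to 3.52), and 1 of the other 49 stretches held at least as many, with 41 at the most. A3 ZFP57 had 4 peaks there, a ratio of 3.44 (0.906 to 9.29). A3 KAP1 had 9.10 times as many peaks as E14 KAP1 on the rest of chromosome 4 and 1.78 times as many in this window.

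The second window of chromosome 7 showed the opposite order of the lines. It held 65 A3 KAP1 peaks, 21.7 per Mb against 4.02 per Mb in the rest of chromosome 7, a ratio of 5.39 (4.10 to 6.98) and the highest density of any list in any window. None of the other 45 stretches of 3 Mb on the chromosome reached that count, the highest holding 43 and the median 10. E14 KAP1 had a single peak there, a ratio of 0.622 (0.0155 to 3.58), although 28 of the 45 other stretches held at least 1. E14 ZFP57 also had 1 peak and A3 ZFP57 had none, which allows up to 1.00 per Mb by the limit of 3 counts. The A3 KAP1 peaks filled the whole window, with 6 to 18 in each of its 6 bins of 500 kb and a median distance of 26.1 kb between neighbours against 97.1 kb in the rest of the chromosome.

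**Figure D2:**
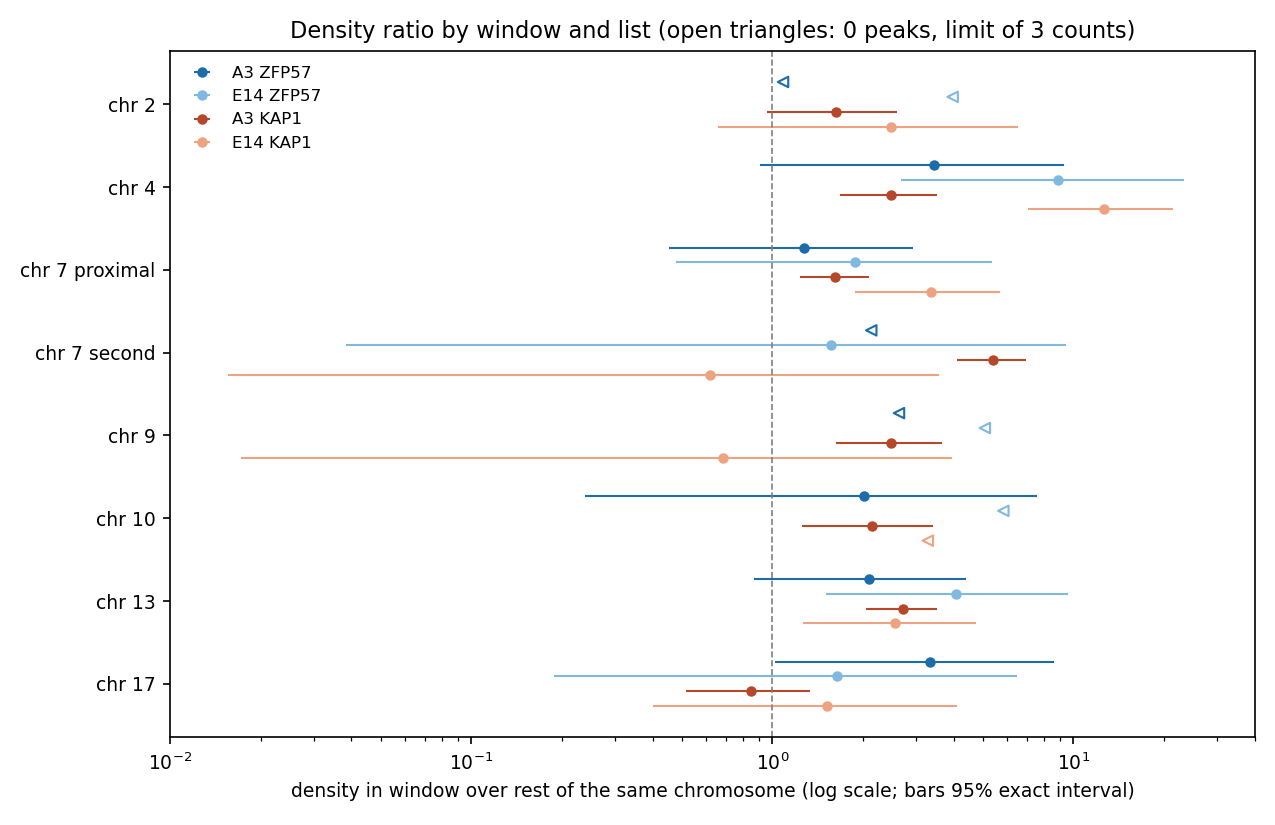
Density in a window over density in the rest of the same chromosome, on a log axis, for each list, with 95% exact intervals as bars. Open triangles stand at the limit of 3 counts where a window held 0 peaks. The interval of A3 KAP1 lies above 1 in 6 of 8 windows and that of E14 KAP1 in 3 of 8.

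The long proximal window of chromosome 7 held 65 A3 KAP1 peaks over 10 Mb, 6.50 per Mb and a ratio of 1.62 (1.23 to 2.09). It also held 18 E14 KAP1 peaks, 1.8 per Mb and a ratio of 3.36 (1.89 to 5.69). In 13 other stretches of 10 Mb the A3 list held 20 to 63 peaks and the E14 list 1 to 8, both below the counts in the window. The A3 peaks were uneven, with up to 11 in a 500 kb bin near the start of the window and none in 4 of its 20 bins.

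On chromosome 13 the window held 66 A3 KAP1 peaks, 9.43 per Mb and a ratio of 2.71 (2.05 to 3.52), above each of the 15 other stretches of 7 Mb, which held 10 to 51. The 12 E14 KAP1 peaks gave 1.71 per Mb and a ratio of 2.55 (1.26 to 4.73), and 1 of the 15 other stretches held as many or more. Both KAP1 lists had their fullest bin of 500 kb at the same place, 5500 to 6000 kb from the window start, with 11 A3 and 3 E14 peaks.

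In the windows on chromosomes 9 and 10 A3 KAP1 was dense, while E14 KAP1 had at most 1 peak in each. Chromosome 9 had 27 A3 KAP1 peaks with a ratio of 2.49 (1.62 to 3.66) and 1 E14 KAP1 peak with a ratio of 0.687 (0.0171 to 3.96). Chromosome 10 had 18 A3 KAP1 peaks with a ratio of 2.13 (1.26 to 3.41) and no E14 KAP1 peak, for which 3 counts set the upper limit of the ratio at 3.28. Both E14 upper limits lay above the A3 ratios, so a difference between the lines was not detectable in these windows. The chromosome 2 window held 18 A3 KAP1 peaks, a ratio of 1.63 (0.961 to 2.60), of which 10 fell in a single bin of 500 kb, 2000 to 2500 kb from the start. All but 1 of its 4 E14 KAP1 peaks fell in that bin too, and the E14 ratio was 2.48 (0.661 to 6.56).

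Chromosome 17 was the exception for A3 KAP1. Its window held 20 A3 KAP1 peaks, 5.00 per Mb against 5.87 per Mb in the rest, a ratio of 0.852 (0.516 to 1.33), and 11 of 21 other stretches of 4 Mb held at least 20. E14 KAP1 had 4 peaks and a ratio of 1.52 (0.401 to 4.11). ZFP57 in A3 had 5 peaks there and a ratio of 3.34 (1.02 to 8.61), the only window in which the A3 ZFP57 interval lay above 1, and 1 of the 21 other stretches held as many or more.

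**Figure D3:**
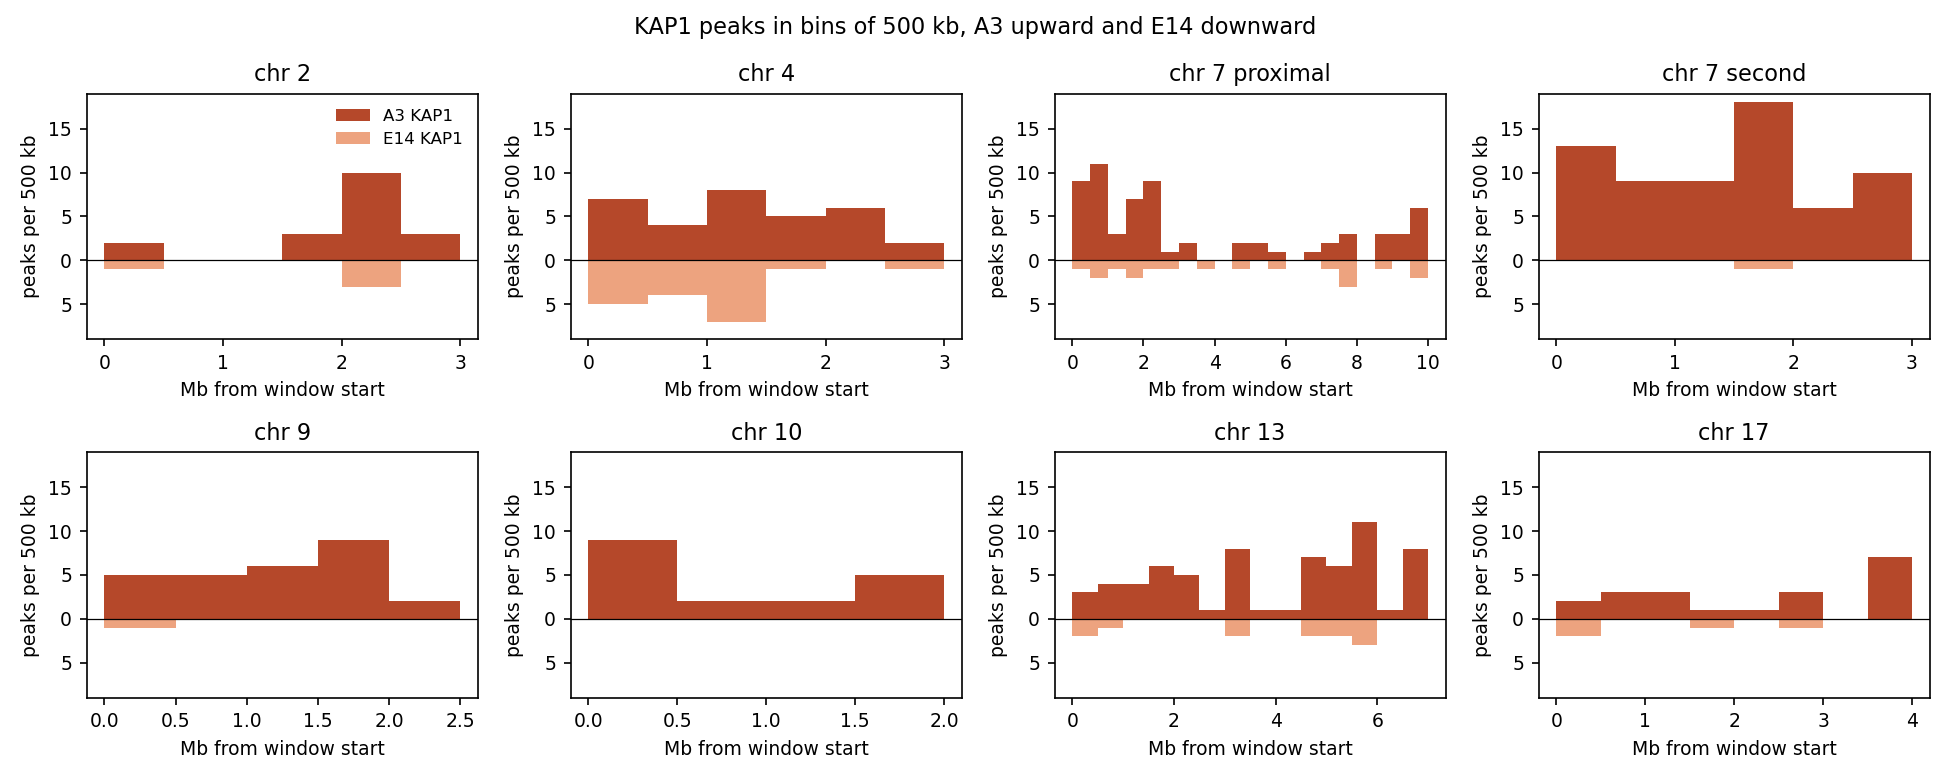
KAP1 peaks in successive bins of 500 kb, by distance from the start of each window in Mb, with A3 drawn upward and E14 downward. The E14 peaks crowd into the first 1500 kb of the chromosome 4 window, where A3 peaks also lie, while A3 alone fills the second chromosome 7 window.

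ZFP57 peaks were few in the windows, and several windows held none. Chromosomes 2 and 9 had no ZFP57 peak in either line. The A3 list, with 161 ZFP57 peaks on the rest of chromosome 2 (0.922 per Mb), therefore had 0 in 3 Mb, which allows up to 1.00 per Mb, so a difference was not detectable at this number of peaks. Chromosome 13 had the most, with 8 A3 peaks (a ratio of 2.10, 0.867 to 4.41) and 7 E14 peaks (4.08, 1.5 to 9.61). None of the 8 A3 peaks overlapped any of the 7 E14 peaks, where 3 of 60 A3 and 3 of 27 E14 ZFP57 peaks on the rest of the chromosome were shared, so 0 is near what those shares give. The gap from an A3 peak to the nearest E14 ZFP57 peak ran from 210 kb to 1407 kb. The proximal chromosome 7 window held 6 A3 and 4 E14 ZFP57 peaks, chromosome 10 held 2 A3 peaks and no E14 peak, and chromosome 17 held 5 and 2.

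Most broad peaks of the windows lay on chromosome 4. Positions are in steps of 150 bp, the minimum width is 300 bp, and peaks of at least 1050 bp are called broad here. All 3 broad A3 ZFP57 peaks of the windows lay on chromosome 4, and so did both broad E14 ZFP57 peaks and all 3 broad E14 KAP1 peaks. Over the whole lists 2.63% of A3 ZFP57, 4.32% of E14 ZFP57 and 2.47% of E14 KAP1 peaks were broad. A3 KAP1 had 20 broad peaks in the windows (6.43%, 3.97 to 9.76%) against 6.23% of its whole list, and 7 of those 20 were among the 32 on chromosome 4. On the rest of chromosome 4 the broad peaks numbered 1 of 58 for A3 ZFP57, 0 of 28 for E14 ZFP57, 0 of 71 for E14 KAP1 and 15 of 646 for A3 KAP1.

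The broad ZFP57 peaks of the chromosome 4 window did not overlap between the lines, as most ZFP57 peaks did not. The A3 peaks were at chr4:145146451-145153200 (6750 bp), chr4:145181851-145185150 (3300 bp) and chr4:145705351-145709250 (3900 bp). E14 had chr4:145038301-145044600 (6300 bp) and chr4:146017351-146021550 (4200 bp). The nearest A3 and E14 ZFP57 peaks of this window were 55.5 kb apart. On the rest of chromosome 4, 5 of 58 A3 and 5 of 28 E14 ZFP57 peaks were shared between the lines. Over the whole lists the shares were 3.77% and 9.30%, so no sharing among so few peaks is near what these shares give. None of the broad ZFP57 peaks, 3 in A3 and 2 in E14, overlapped a KAP1 peak of its own line. In the whole lists 4.24% of ZFP57 peaks overlapped KAP1 in A3 and 26.6% in E14, so a difference was not detectable with so few peaks. KAP1 peaks stood 5.55 kb and 9.30 kb from the E14 pair and 12.8 kb, 37.2 kb and 72.6 kb from the A3 peaks.

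The 3 broad E14 KAP1 peaks of the same window each overlapped a broad A3 KAP1 peak, but with shifted edges. A3 had 7 broad KAP1 peaks there, of which 3 met an E14 peak. Among all A3 KAP1 peaks it was 6 of 32 in this window, 38 of 646 on the rest of chromosome 4 and 5.96% of the list. A3 had chr4:145424701-145427700 where E14 had chr4:145423801-145425750, with the E14 end 1950 bp before the A3 end. At the next pair, chr4:145722001-145725150 in A3 and chr4:145724101-145726050 in E14, the E14 start lay 2100 bp after the A3 start. The last pair was chr4:146559601-146562450 in A3 and chr4:146558701-146561400 in E14, with the E14 start 900 bp before. The A3 widths were 3000, 3150 and 2850 bp and the E14 widths 1950, 1950 and 2700 bp. The widest A3 KAP1 peak of all windows, chr4:146709001-146713200 (4200 bp), met no E14 peak. Nor did the broad A3 KAP1 peaks chr4:145617151-145618350 (1200 bp), chr4:146206651-146207700 (1050 bp) and chr4:146571301-146573850 (2550 bp). In each window outside chromosome 4 the widest site was a KAP1 peak called in A3 alone: chr13:62282851-62285250, chr2:176893801-176895300, chr7:4106551-4107900 in the proximal window, chr7:30510451-30511650 in the second one, chr9:21566401-21567600, chr17:23683201-23684100 and chr10:80635801-80636550. Such sites of A3 KAP1 alone were 275 of the 369 sites of all windows.

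These broad peaks carried much of the sequence covered. Chromosome 4 held 61.8% of the bases that A3 ZFP57 peaks covered in the windows, 65.3% for E14 ZFP57, 42.7% for E14 KAP1 and 15.7% for A3 KAP1. Covered sequence per Mb in the windows over the rest was 2.92 times for A3 ZFP57, 3.91 for E14 ZFP57, 2.36 for A3 KAP1 and 3.55 for E14 KAP1. Without the chromosome 4 window these ratios fell to 1.15 for A3 ZFP57, 1.39 for E14 ZFP57 and 2.14 for E14 KAP1. In this setting the rest of chromosome 4 was left out of the background too.

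Median widths were the same in the windows as elsewhere in all lists but A3 ZFP57, while the share of peaks of the minimum width differed for E14 KAP1. Both E14 lists had a median width of 450 bp in the windows and in the rest alike, and A3 KAP1 one of 600 bp in each. A3 ZFP57 had a median of 450 bp in the windows against 300 bp, and 300 bp without chromosome 4. Its peaks of the minimum width were 11 of 25 in the windows (44.0%, 24.4 to 65.1%), 64.0% in the rest of these chromosomes and 54.0% of the list. For E14 ZFP57 they were 6 of 19 (31.6%, 12.6 to 56.6%), with 40.5% in the rest and 42.5% of the list. Peaks of the minimum width were fewer among the E14 KAP1 peaks of the windows, at 9 of 58 (15.5%, 7.35 to 27.4%) against 34.3% (30.1 to 38.6%) in the rest of these chromosomes and 35.4% of the whole list. For A3 KAP1 the shares were 13.5% and 14.2%, with 13.4% over the list.

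**Figure D4:**
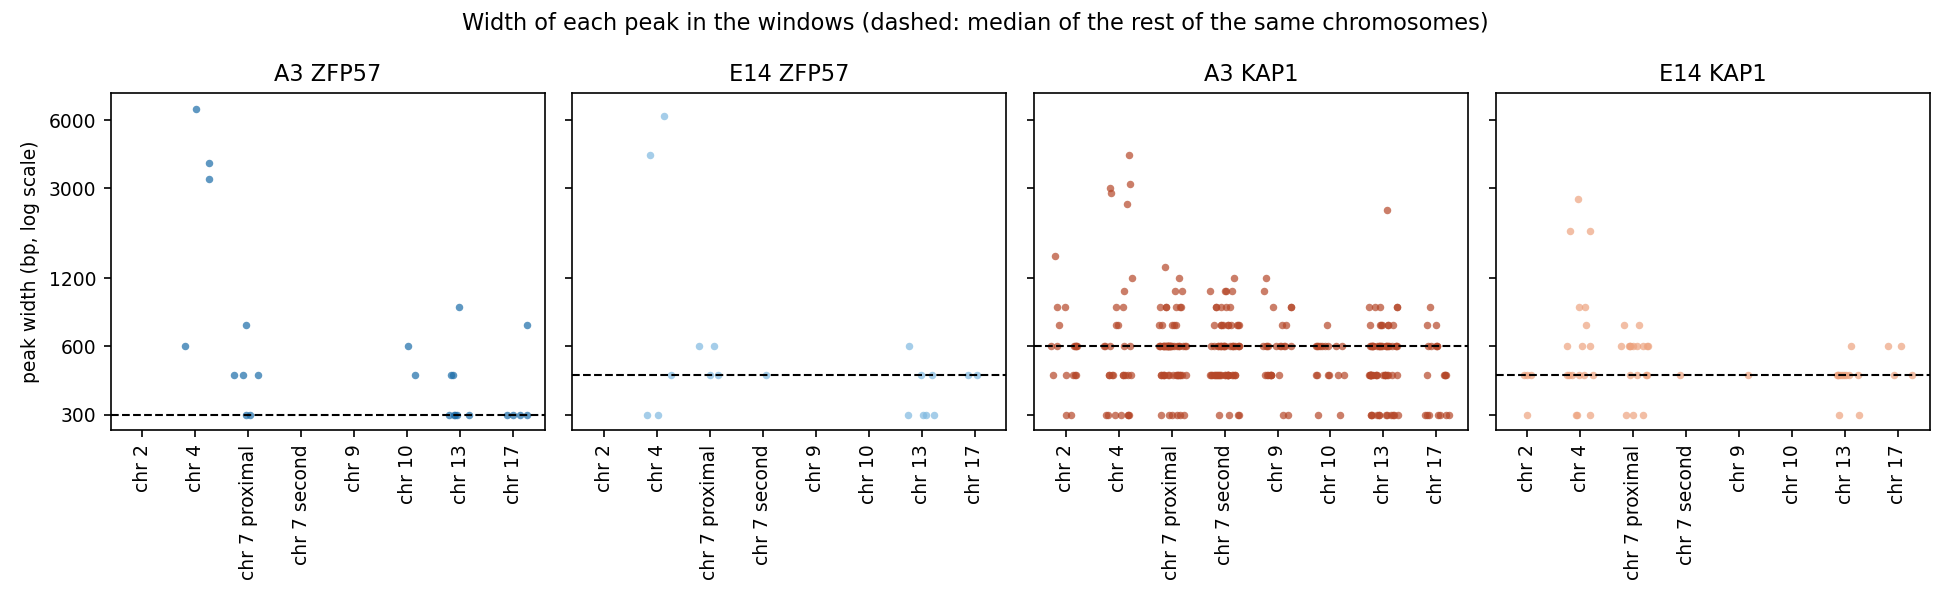
Width of each peak in the windows, in bp on a log axis, by window and list, with the median of the rest of the same chromosomes as a dashed line. All ZFP57 and E14 KAP1 peaks of 1050 bp or more lie in the chromosome 4 window, and the other ZFP57 peaks reach at most 900 bp.

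Pooled over the windows, A3 KAP1 peaks were called in E14 too at a higher share than elsewhere, but 1 window set much of this. Of the A3 KAP1 peaks, 34 of 311 overlapped an E14 KAP1 peak by at least 1 bp (10.9%, 7.69 to 14.9%), where 5.98% (5.25 to 6.78%) did in the rest of these chromosomes and 5.96% in the whole list. The proximal chromosome 7 window gave 14 of the 34 pairs, and without it the share was 8.13% (5.04 to 12.3%), whose interval overlaps that of the rest. The windows had 5.36 A3 KAP1 peaks per E14 KAP1 peak and the rest 7.62, and the share was not tested apart from this. The A3 share was below that of the rest of the chromosome in 3 windows, with 1 of 65 in the second chromosome 7 window (1.54% against 6.75%), 1 of 27 on chromosome 9 (3.70% against 5.63%) and 0 of 18 on chromosome 10 (against 6.08%). In E14 the same 34 pairs made up 58.6% of 58 peaks (44.9 to 71.4%), against 45.6% (41.1 to 50.1%) in the rest and 46.0% of the whole list, and these intervals overlap. The chromosome 4 window had the lowest E14 share among windows with more than 4 E14 KAP1 peaks, with 6 of 18 shared (33.3%, 13.3 to 59.0%), and the rest of that chromosome had 53.5%. The proximal chromosome 7 window had 14 of 18 (77.8%, 52.4 to 93.6%), where the rest of the chromosome had 50.7%. Chromosome 13 shared 6 of 12 and chromosomes 2 and 17 each 3 of 4. The lone E14 KAP1 peaks of the chromosome 9 window and the second chromosome 7 window both overlapped an A3 peak.

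The shared KAP1 peaks mostly had the same place in both lines. Of the 34 pairs 12 had the same start and end, the A3 peak was wider in 19 and the E14 peak in 3, and the midpoints lay within 150 bp in 30. In the rest of these chromosomes 219 of 226 lay within 150 bp. Of the 24 E14 KAP1 peaks not shared, 3 had an A3 KAP1 peak within 10 kb, against 23 of 270 in the rest. The median distance from an unshared E14 peak to an A3 KAP1 peak was 29.2 kb, against 102 kb in the rest. A3 KAP1 peaks were themselves denser in the windows, at 9.01 per Mb against 4.19, and the distance was not tested apart from this density.

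A single ZFP57 peak of the windows was shared between the lines, which is 4.00% of the A3 peaks (0.101 to 20.4%) and 5.26% of the E14 peaks (0.133 to 26.0%). Elsewhere on the same chromosomes the shares were 5.49% and 12.6%, and over the whole lists 3.77% and 9.30%, so a difference was not detectable with so few peaks. The nearest unshared ZFP57 peaks of the lines stood 54.6 kb apart, on chromosome 17. The 24 unshared A3 peaks had a median distance of 631 kb to the nearest E14 ZFP57 peak.

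**Figure D5:**
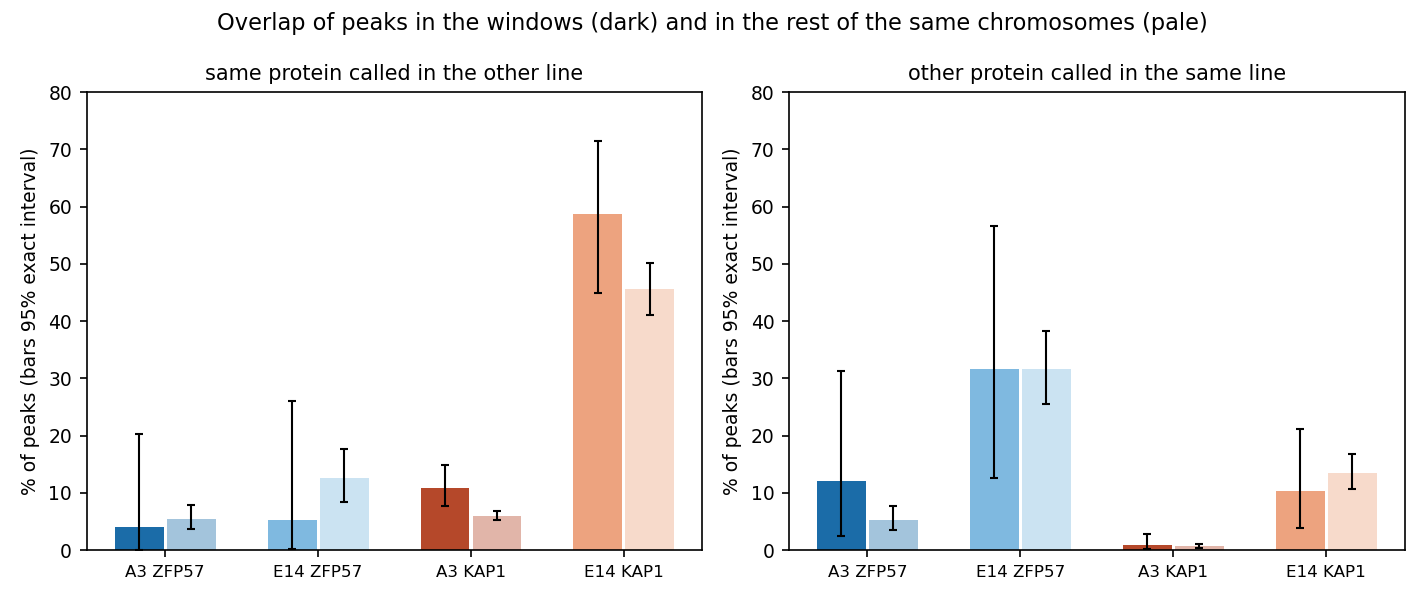
Share of peaks that overlapped the same protein in the other line (left) and the other protein in the same line (right), in percent, in the windows (dark) and in the rest of the same chromosomes (pale), with 95% exact intervals. For A3 KAP1 the share called in E14 was 10.9% in the windows and 5.98% in the rest.

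In E14, 6 of 19 ZFP57 peaks of the windows overlapped an E14 KAP1 peak (31.6%, 12.6 to 56.6%), against 31.6% in the rest of these chromosomes and 26.6% of the whole list. In A3 it was 3 of 25 (12.0%, 2.55 to 31.2%), against 5.28% (3.48 to 7.65%) and 4.24% of the list. Seen from KAP1, 6 of 58 E14 peaks (10.3%, 3.89 to 21.2%) and 3 of 311 A3 peaks (0.965%, 0.199 to 2.79%) met ZFP57, where the whole lists had 12.0% and 0.612%. Most KAP1 peaks in the windows had no ZFP57 peak of their line. Single windows set these shares: without the proximal chromosome 7 window the E14 shares were 13.3% of ZFP57 and 5.00% of KAP1 peaks, and without chromosome 13 the A3 shares were 5.88% and 0.408%.

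The 4 lists gave 369 sites in the windows when overlapping peaks were joined, of which 38 were called in 2 or more lists. A3 KAP1 alone accounted for 275, E14 KAP1 alone for 22, ZFP57 alone for 22 in A3 and 12 in E14, and KAP1 of both lines without ZFP57 for 29. In 3 or more lists there were 5 sites, and all lay on chromosome 7 or 13. The rest of these chromosomes gave 4645 sites, of which 3542 were A3 KAP1 alone and 232 E14 KAP1 alone. ZFP57 alone made up 452 there in A3 and 141 in E14, and KAP1 of both lines without ZFP57 made up 192. In all lists there were 18 sites in the rest. KAP1 of both lines with ZFP57 of E14 alone gave 16 more, and both ZFP57 lists with E14 KAP1 gave 6.

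One site was called in all lists, chr7:6681601-6682500 in the proximal window. ZFP57 peaks there were 750 bp wide in A3 and 600 bp in E14 and started at the same position, and the KAP1 peaks were 900 and 750 bp. Another A3 ZFP57 peak of 450 bp lay 117 kb before it without KAP1. The imprinted gene Peg3 is known to lie in this zinc finger region, but no gene was assigned to the site.

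In E14 the ZFP57 peaks of the proximal chromosome 7 window carried KAP1 in 4 of 4 cases, where 16 of 29 did on the rest of the chromosome and 26.6% in the whole list. Besides the site of all lists these were chr7:4303951-4304400 and chr7:13896601-13897200, where A3 also had KAP1 but not ZFP57, and chr7:6084151-6084750, where A3 had neither. At the first of these all peaks were 450 bp wide with the same edges, and at chr7:6084151-6084750 both were 600 bp. In A3, 1 of the 6 ZFP57 peaks of the window carried KAP1, and 8 of 64 did on the rest of the chromosome.

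Chromosome 13 held the remaining sites of 3 lists. At chr13:64271101-64271550 ZFP57 in E14 met KAP1 of both lines, and at chr13:66538201-66538950 ZFP57 in A3 did, where the ZFP57 peak was 300 bp wide inside an A3 KAP1 peak of 750 bp. A further A3 ZFP57 peak overlapped KAP1 by its edge at chr13:61027651-61028100. In this window 2 of 8 A3 ZFP57 peaks carried KAP1 of their line, against 3 of 60 on the rest of the chromosome. For E14 it was 1 of 7 against 8 of 27. The widest E14 ZFP57 peak of that window, chr13:67199401-67200000, had no KAP1 peak within 243 kb in E14. On chromosome 4 a single ZFP57 peak carried KAP1, in E14 at chr4:147789601-147790050, where both peaks had the same edges and A3 had neither. It was 1 of 5 E14 peaks of that window, against 9 of 28 on the rest of the chromosome. For A3 it was 0 of 4 against 5 of 58. The only ZFP57 peak of the second chromosome 7 window, at chr7:30516751-30517200 in E14, overlapped an A3 KAP1 peak and none of E14.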

How the data were processed

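Per the labels, chromatin of wild-type A3 and E14 cells was precipitated with antibodies to ZFP57 or KAP1. The deposited files are peak lists made by the authors, 1 per library, with chromosome, start and end and no other value, such as a score or a read count, so depth is unknown. Per the submitters' processing notes, positions are in mm9 and the tools were Bowtie 0.12.7, SAMtools 0.1.18, CASAVA 1.8.2 and bedtools 2.14.3-1. How peaks were called, with what threshold and control, and how reads that match several places were treated is not given in the sources used here. The last bears on tandem gene arrays.

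Starts were reduced by 1 and touching peaks of a list merged (58 removed in all). The rest of a chromosome ran from the first to the last peak of any list outside the windows. Density ratios have exact conditional intervals, shares Clopper-Pearson intervals. The limit for 0 peaks is 3 counts. Named were sites in 3 or 4 lists, ZFP57 sites of both lines or with KAP1, the 3 widest peaks of each list and the widest site of each window; other positions were chosen after their values were seen. Windows, measures and lists were chosen with earlier results of these data known. Gene context and the mm9 sequence of peaks were not analysed here. Overlap counts were tested against bedtools 2.31.1 on the A3 KAP1 list, its peaks shifted at random, and the E14 KAP1 list. Density ratios were tested on simulated lists. Analyses ran in Python 3.11.15 with scipy 1.17.1, pandas 2.3.3, numpy 2.4.6 and matplotlib 3.10.9.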

Additional observations from a re-analysis of the deposited data

Results flagged for a closer look

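In several windows the density ratio lay above 1 in one line and below 1 in the other. These differences were not tested, since each line has 1 library per protein. For KAP1 the ratio was 5.39 in A3 and 0.622 in E14 in the second chromosome 7 window, 2.49 and 0.687 on chromosome 9, 2.13 and 0 on chromosome 10, and 0.852 and 1.52 on chromosome 17. For ZFP57 it was 0 in A3 and 1.57 in E14 in the second chromosome 7 window, and 2.01 and 0 on chromosome 10. The E14 values in the second chromosome 7 window and those of chromosomes 9 and 10 rest on at most 1 peak, as do the A3 ZFP57 value of 0 and the E14 ZFP57 value of 0. In the second chromosome 7 window the E14 KAP1 interval, 0.0155 to 3.58, ended below the start of the A3 interval at 4.10. On chromosomes 9, 10 and 17 the intervals of the lines overlapped.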

How the results depend on the processing

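Of 280 alternative values for 20 results, 267 stayed within the interval of the reported value or, for covered sequence, within 1.5 times, and all 60 alternative density ratios stayed above 1 as values. Their intervals did not all stay on 1 side: that of E14 ZFP57 included 1 with narrowed windows (from 0.834), without chromosome 4 (from 0.959) and without chromosome 13 (from 0.933), and that of A3 ZFP57, which includes 1, lay above it in wider peaks (from 1.11) and without chromosome 2 (from 1.11). The KAP1 intervals lay above 1 in every alternative that gives one. In the wider peaks (at least 450 bp, or 600 bp for A3 KAP1) the A3 ZFP57 density ratio was 2.07, its covered ratio 4.56, and 40.8% of E14 KAP1 peaks were shared. Without peaks over 1500 bp the covered ratio was 1.35 for A3 ZFP57 and 1.88 for E14 ZFP57, and with windows narrowed by 500 kb it was 2.30 for E14 ZFP57. A window was left out together with the rest of its chromosome, except on chromosome 7, where the rest stayed in the background. Leaving out 1 window at a time gave density ratios of 1.86 to 2.40 for A3 KAP1 and 2.25 to 3.29 for E14 KAP1. It gave covered ratios of 1.15 to 3.65 for A3 ZFP57, 1.39 to 4.85 for E14 ZFP57 and 2.14 to 4.01 for E14 KAP1, the lowest each time without chromosome 4. The line-shared share of ZFP57 peaks ran from 0 to 5.88% in A3 and from 0 to 8.33% in E14, at 0 without the proximal chromosome 7 window. Apart from what these settings remove by construction, the cause was not tested. List length, which moves with depth and threshold, limits what a window with no peak can show. No paired analysis was possible because each group has 1 library and no test was run.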
